A study of Mus musculus with 2 samples.

Results

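Toll-like receptors are the membrane receptors by which immune cells recognise molecules of microbes and of damaged cells. The 10 receptor genes described here are Tlr1, Tlr2, Tlr3, Tlr4, Tlr6, Tlr7, Tlr8, Tlr9, Tlr11 and Tlr13, taken by symbol from the 32285 genes of both deposited count matrices, and all 10 were found in each. They were chosen as a gene family and not by their measured values. The study grew Hepa1-6 cells, a mouse hepatoma line, as tumours placed in the liver of wild-type C57/BL6 mice, and treated the mice with an antibody to PD-1, the inhibitory receptor of T cells, or with an isotype control, which the series text calls IgG. Living CD45+ cells, that is immune cells, were enriched on beads, sorted by flow cytometry from digested tumour tissue freed of surrounding normal tissue, and profiled by droplet sequencing of 3′ RNA ends. There was 1 library for each antibody, and the labels state neither the dose, the time of collection and the age of the mice nor how many mice a library holds. A difference between the antibodies therefore has no replicate check and carries no p-value below.

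Each receptor is a single-pass protein with an outer horseshoe of leucine-rich repeats and an inner TIR domain that recruits adaptor proteins. Tlr1, Tlr2, Tlr4 and Tlr6 sit at the cell surface and read lipopeptides and lipopolysaccharide, while Tlr3, Tlr7, Tlr8, Tlr9, Tlr11 and Tlr13 work inside endosomes, most of them on RNA or DNA. All but Tlr3 signal through the adaptor MyD88, Tlr3 signals through TRIF (encoded by Ticam1), and Tlr4 uses both, which leads to NF-κB, interferon regulatory factors and the cytokines they drive.

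The libraries held 72148493 (anti-PD-1) and 67520433 (isotype) unique molecular identifiers (UMIs, counts of captured RNA molecules) in 10149 and 9683 cell barcodes, and 140 barcodes occurred in both. Filters left 9714 and 9296 cells, whose median depth was 6303 and 6129 UMIs. A Ptprc (CD45) UMI was found in 76.6% and 75.3% of them, and an Afp UMI, from a hepatoma gene, in 0.319% and 0.344%. Xist gave 0 UMIs in either library and Ddx3y gave 4027 and 3605, values that bear on the X-linked Tlr7, Tlr8 and Tlr13 because both libraries read as male. Cells were gated by marker lists that contain no receptor, and 23.0% and 21.7% stayed without a type. Every marker of each of the 12 lists used was found in a larger share of the gated cells than outside them. The gate used these same markers, so this is not a separate check of the types. A class of cells left over by those lists, but with UMIs of Arg1, Thbs1 and Fn1 together, was kept under those names. The largest gates were neutrophil-like (1995 and 2028 cells, anti-PD-1 first as in every pair of values below), classical monocyte-like (1380 and 1092), macrophage-like (1151 and 1092) and Arg1 Thbs1 Fn1 cells (1126 and 1363). T-like cells numbered 590 and 492, non-classical monocyte-like cells 384 and 298, and cDC2-like cells, the type 2 conventional dendritic cells, 318 and 360. Migratory dendritic-like cells (174 and 187), cDC1-like cells (137 and 96), NK-like cells (63 and 68) and immature neutrophil-like cells (54 and 80) were fewer. Plasmacytoid dendritic-like (44 and 59) and B-like cells (41 and 49) fell below the minimum of 50 cells per library set for the tests.

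Levels are given as CPM, the gene's share of a type's summed UMIs in a library, scaled to a total of 1000000 UMIs, and for some genes also as UMIs per cell. The 2 scales can rank types differently, because a neutrophil-like cell gave a median of 2059 and 1908 UMIs and a classical monocyte-like cell 8970 and 9193. Types were compared with edgeR's quasi-likelihood test on the sums per type and library, adjusted by Benjamini-Hochberg over all genes, with a threshold of 0.05. In that comparison each of 11 types was set against the mean of the other 10 on the log scale, so a gene with 0 UMIs in some type has no finite value, and calls were read only for the 5 members with UMIs in every type, which are Tlr2, Tlr4, Tlr6, Tlr7 and Tlr13. For the others, and beside these, each type was also set against all other sums, where the error is the spread among types. The p-values of the first form rest on the spread between 2 libraries that differ in antibody, and nothing says they came from more than 1 mouse each. Both forms scale the sums by edgeR's TMM factors, a trimmed mean of gene ratios between sums, and CPM does not. The log2 differences of the test can therefore rank types differently from CPM.

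Across the 11 types, 47 of the 55 pairs of member and type passed the test, 28 of them higher and 19 lower than the mean of the other types. All 5 members were higher in neutrophil-like cells, where 78.3% of all genes passed the test in either direction, in classical monocyte-like cells (51% of all genes), in non-classical monocyte-like cells (36.7%), in macrophage-like cells (55%) and in Arg1 Thbs1 Fn1 cells (51.3%). All 5 were lower in T-like cells (68% of all genes passed) and in cDC1-like cells (52.2%), and 3 were lower and none higher in NK-like cells (35.4%) and in migratory dendritic-like cells (47.6%). In cDC2-like cells, where 44.2% of all genes passed, 1 was higher and 3 lower, and in immature neutrophil-like cells, with 40.4%, 2 were higher. The median log2 difference of the 5 members was 4.45 in neutrophil-like cells, against -0.18 over all genes. Against all other sums, 6 of 130 pairs of member and type passed: Tlr1, Tlr4, Tlr6 and Tlr13 in neutrophil-like cells (41.3% of all genes passed there) and Tlr3 and Tlr11 in cDC1-like cells (0.344%). In plasmacytoid dendritic-like cells (2.41% of all genes) and in the other 10 types together (1.13%), no member passed in that form. Tlr3 and Tlr11, at most 1.72 and 1.71 CPM in any other type, met the filter on low counts only through cDC1-like cells. Their calls are therefore not a separate test of a peak there.

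**Figure D1:**
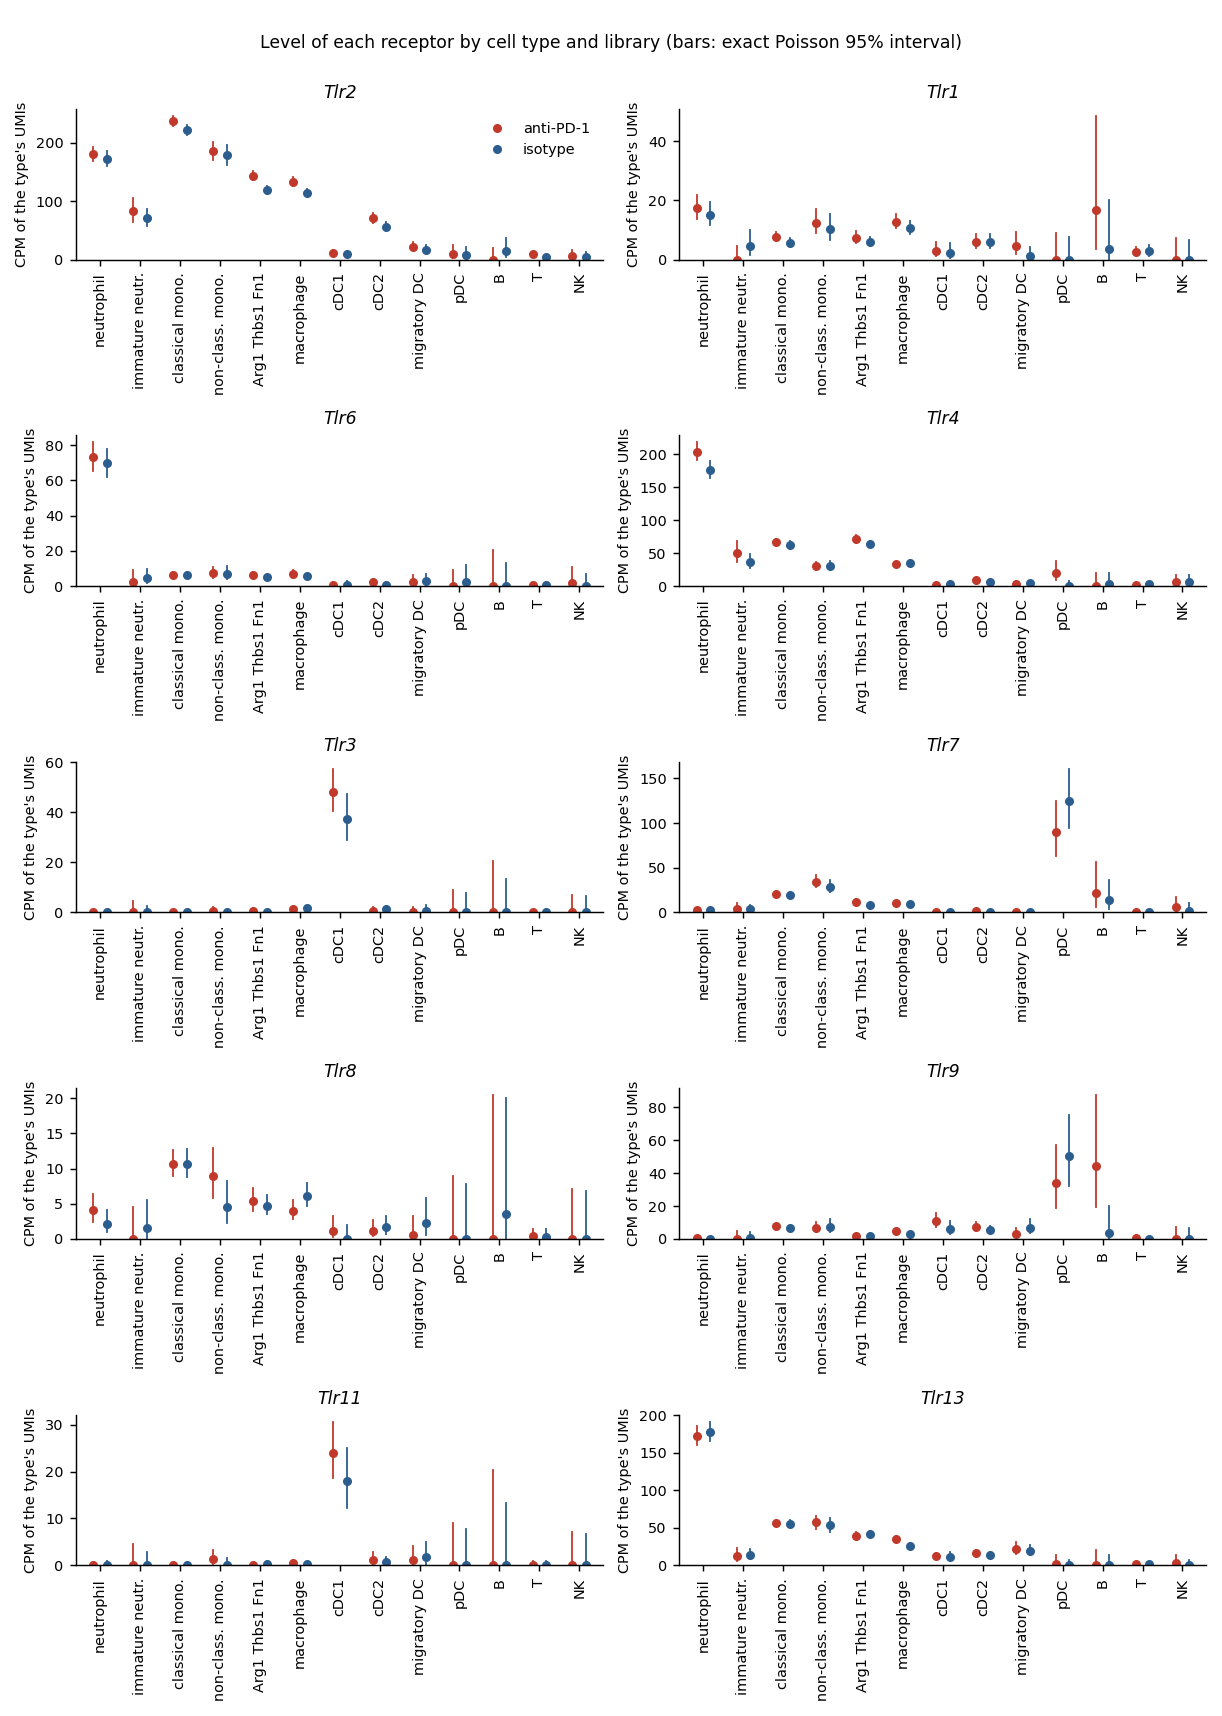
CPM (vertical axis, linear from 0, scale differs by panel) of each of the 10 receptors in 13 gated cell types (horizontal axis), with 1 point per library (red anti-PD-1, blue isotype) and bars for the exact Poisson 95% interval, which covers counting error only. Tlr3 and Tlr11 stand out in cDC1-like cells, Tlr7 in plasmacytoid dendritic-like cells, and Tlr4, Tlr6 and Tlr13 in neutrophil-like cells, while Tlr2 is spread over the neutrophil-like and monocyte-like types.

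Tlr2, the surface receptor for bacterial lipoproteins and the shared partner in the heterodimers with Tlr1 and Tlr6, was read most widely. In all kept cells its level was 137 and 119 CPM. In CPM it was highest in classical monocyte-like cells, at 237 and 222, apart from every other type in both libraries. Non-classical monocyte-like cells (185 and 178 CPM) and neutrophil-like cells (180 and 172 CPM) came next and overlapped. Arg1 Thbs1 Fn1 cells (144 and 118 CPM) and macrophage-like cells (133 and 114 CPM) also overlapped each other. Immature neutrophil-like cells gave 82.7 and 71.1 CPM and cDC2-like cells 70.7 and 56.5 CPM. Lower down came migratory dendritic-like cells with 22.3 and 17.1 CPM, cDC1-like cells with 11.8 and 9.76 CPM, and NK-like cells with 5.79 and 3.67 CPM. Against the mean of the other types, the log2 difference was 2.95 ± 0.08 (SE) in neutrophil-like cells (edgeR adjusted p = 1.30e-21) and 2.35 ± 0.07 in classical monocyte-like cells (adjusted p = 5.56e-19). The TMM-scaled fit thus put neutrophil-like above classical monocyte-like cells, the reverse of their order in CPM. In cDC2-like cells the log2 difference was 0.28 ± 0.10 (adjusted p = 0.0323 in edgeR's test). That call did not pass in DESeq2 (adjusted p = 0.0864) and turned in sign, to -0.024, when doublets were not removed. Against all other sums Tlr2 did not pass in neutrophil-like cells (log2 difference 2.18 ± 1.08, edgeR adjusted p = 0.105). The share of cells with a Tlr2 UMI was 74.0% and 72.9% in classical monocyte-like cells, set beside 5.25% and 2.44% in T-like cells of median depth 7936 and 6330 UMIs.

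Tlr1 and Tlr6, which pair with Tlr2 to tell triacylated from diacylated lipopeptides, differed in how narrow they were. Tlr6 was at 73.2 and 69.7 CPM in neutrophil-like cells. The next type, non-classical monocyte-like cells, stood at 7.24 and 7.11 CPM. Macrophage-like (7.06 and 5.76 CPM) and classical monocyte-like cells (6.53 and 6.19 CPM) overlapped each other just below, within the counting intervals of the non-classical values. Its log2 difference in neutrophil-like cells was 5.79 ± 0.12 (edgeR adjusted p = 9.86e-24) against the mean of the other types, and 5.30 ± 0.61 (adjusted p = 1.56e-07) against all other sums. Neutrophil-like cells held 44.9% and 47.4% of each library's Tlr6 UMIs. Immature neutrophil-like cells, by contrast, had 2 and 6 Tlr6 UMIs in all, or 2.47 and 4.54 CPM, with intervals that overlapped those of the monocyte-like types. Tlr1 was at 17.3 and 15.2 CPM in neutrophil-like cells, 12.8 and 10.7 CPM in macrophage-like cells and 12.5 and 10.5 CPM in non-classical monocyte-like cells. Its lower levels ran from 7.43 and 5.87 CPM in Arg1 Thbs1 Fn1 cells and 7.75 and 5.54 CPM in classical monocyte-like cells, through 5.91 and 6.07 CPM in cDC2-like cells, to 2.55 and 2.75 CPM in T-like cells. No Tlr1 UMI was read in NK-like cells, where the exact 95% interval reaches 7.12 and 6.78 CPM. Tlr1 passed in neutrophil-like cells against all other sums, with a log2 difference of 2.56 ± 0.76 (edgeR adjusted p = 0.00864). Tlr1 and Tlr6 shared 454 identical windows of 50 bases out of 3332 and 3702 in their transcripts, and none of the other 44 pairs of members shared any. Reads from the shared sequence cannot be told apart, and the levels of these genes are uncertain to that extent.

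Neutrophil-like cells with a Tlr6 UMI had a Tlr2 UMI about as often as those without, in 27.0% against 25.4% with anti-PD-1 and 25.7% against 22.8% with isotype. Macrophage-like cells with a Tlr1 UMI had a Tlr2 UMI more often than those without, in 56.3% against 45.2% and 54.5% against 45.2%. The macrophage-like cells with a Tlr1 UMI were also deeper, with median UMIs of 9764 against 7126 and 10699 against 8230, and the part of depth in that gap was not tested.

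Tlr4, the receptor of lipopolysaccharide, was highest in neutrophil-like cells as a share of RNA, at 204 and 176 CPM. Arg1 Thbs1 Fn1 cells (71.1 and 63.5 CPM) and classical monocyte-like cells (66.1 and 63.0 CPM) followed and overlapped each other. Immature neutrophil-like cells gave 50.6 and 37.1 CPM, macrophage-like cells 32.9 and 35.2 CPM, and non-classical monocyte-like cells 30.3 and 30.1 CPM. The conventional and migratory dendritic types were low, with 8.75 and 6.48 CPM in cDC2-like, 3.52 and 3.98 CPM in migratory dendritic-like and 2.22 and 3.80 CPM in cDC1-like cells. Plasmacytoid dendritic-like cells gave 8 Tlr4 UMIs from 4 cells with anti-PD-1 (19.5 CPM) and 0 with isotype. T-like cells were at 1.59 and 3.01 CPM. The log2 difference in neutrophil-like cells was 4.76 ± 0.08 (edgeR adjusted p = 2.22e-25), and 3.89 ± 0.91 (adjusted p = 0.00118) against all other sums. Among monocytes the 2 kinds differed, since Tlr2 was within 1.5-fold between classical and non-classical monocyte-like cells in each library while the Tlr4 level in CPM was more than 2-fold higher in classical ones. The log2 difference of Tlr4 from the mean of the other types was 2.03 ± 0.09 in classical and 0.82 ± 0.15 in non-classical monocyte-like cells, a gap whose own test was not run.

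Tlr13, which senses a stretch of bacterial ribosomal RNA inside endosomes, was at 173 and 178 CPM in neutrophil-like cells. Non-classical (57.3 and 53.6 CPM) and classical monocyte-like cells (56.3 and 55.4 CPM) overlapped, followed by Arg1 Thbs1 Fn1 cells with 39.8 and 41.3 CPM and macrophage-like cells with 35.5 and 26.5 CPM. Lower levels were found in migratory dendritic-like (22.3 and 19.3 CPM), cDC2-like (16.8 and 14.4 CPM) and cDC1-like cells (12.2 and 11.4 CPM). Plasmacytoid dendritic-like cells gave 1 and 0 Tlr13 UMIs (2.43 and 0 CPM). T-like cells were at 2.07 and 2.00 CPM. In neutrophil-like cells the log2 difference was 4.45 ± 0.08 (edgeR adjusted p = 1.23e-24), and 3.94 ± 0.83 (adjusted p = 0.000446) against all other sums. Immature neutrophil-like cells, at 12.3 and 13.6 CPM, were far below the mature ones, and their difference from the mean of the other types (log2 -0.30 ± 0.28) did not pass. With cells assigned by cluster, that difference turned to 1.49 and passed (edgeR adjusted p = 7.61e-05).

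The neutrophil rank depended on the scale. Per cell, classical monocyte-like cells held 2.24 and 2.16 Tlr2 UMIs against 0.402 and 0.358 in neutrophil-like cells. For Tlr4 they held 0.624 and 0.614 UMIs per cell against 0.454 and 0.367, with immature neutrophil-like cells at 0.759 and 0.612. Tlr13 gave 0.531 and 0.540 UMIs per classical monocyte-like cell against 0.385 and 0.370 per neutrophil-like cell. Tlr6 alone of these 4 receptors was also highest per cell in neutrophil-like cells, at 0.163 and 0.145 UMIs. With every cell thinned to 1000 UMIs, a Tlr4 UMI was found in 16.9% and 15.2% of neutrophil-like and 6.25% and 5.51% of classical monocyte-like cells, where the unthinned shares were 30.9% and 26.1% against 39.0% and 36.4%. Thinned in the same way, Tlr13 was found in 15.7% and 15.2% of neutrophil-like against 5.09% and 5.15% of classical monocyte-like cells, and Tlr6 in 7.35% and 6.71% against 1.02% and 0.919%. Fewer molecules captured from a neutrophil-like cell and less RNA in it cannot be told apart here.

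**Figure D2:**
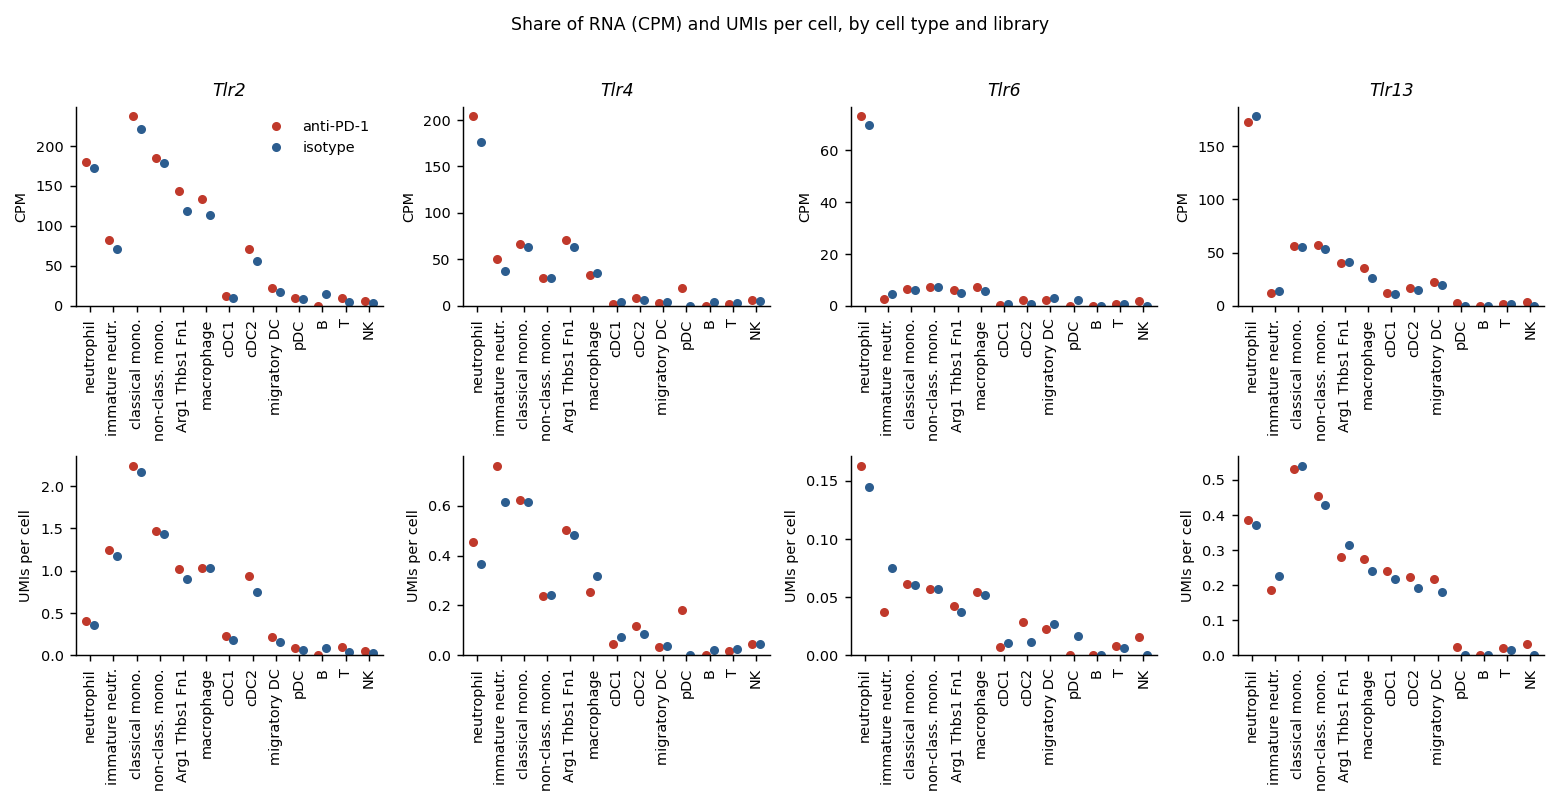
Upper row, CPM; lower row, UMIs per cell (both linear from 0), for Tlr2, Tlr4, Tlr6 and Tlr13 in 13 gated cell types, 1 point per library (red anti-PD-1, blue isotype). The neutrophil-like point is the highest for Tlr4 and Tlr13 in CPM, falls below classical monocyte-like cells in UMIs per cell, and stays highest on both scales for Tlr6.

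Promoter sequences are shown for Tlr6 and Tlr13 as the members most concentrated in neutrophil-like cells beside Tlr4. They cover 250 bases before and 50 after each start site in RefSeq's table (build GRCm38.p6), which held 10 entries for 8 of the members and none under the names Tlr4 and Tlr7. Capitals mark, on either strand, the core of the interferon-stimulated response element (ISRE), to which interferon regulatory factors and the interferon-activated STAT complex bind, and GAGGAAG, a form of the purine-rich site of the myeloid factor PU.1. Tlr6 has 2 entries, at chr5:64959117-64959416 and chr5:64959999-64960298 on the minus strand, and Tlr13 lies at chrX:106143025-106143324 on the plus strand.
Tlr6, first entry: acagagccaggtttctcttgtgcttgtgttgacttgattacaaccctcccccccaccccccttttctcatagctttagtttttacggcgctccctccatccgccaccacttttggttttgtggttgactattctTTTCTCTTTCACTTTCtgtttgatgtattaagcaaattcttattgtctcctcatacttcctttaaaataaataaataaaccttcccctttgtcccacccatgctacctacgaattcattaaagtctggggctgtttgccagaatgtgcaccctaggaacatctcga
Tlr6, second entry: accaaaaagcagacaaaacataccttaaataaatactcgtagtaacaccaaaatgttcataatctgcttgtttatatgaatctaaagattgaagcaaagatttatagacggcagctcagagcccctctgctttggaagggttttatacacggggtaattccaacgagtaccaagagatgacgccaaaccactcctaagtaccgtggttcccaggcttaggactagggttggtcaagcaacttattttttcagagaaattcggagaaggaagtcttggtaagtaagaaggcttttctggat
Tlr13: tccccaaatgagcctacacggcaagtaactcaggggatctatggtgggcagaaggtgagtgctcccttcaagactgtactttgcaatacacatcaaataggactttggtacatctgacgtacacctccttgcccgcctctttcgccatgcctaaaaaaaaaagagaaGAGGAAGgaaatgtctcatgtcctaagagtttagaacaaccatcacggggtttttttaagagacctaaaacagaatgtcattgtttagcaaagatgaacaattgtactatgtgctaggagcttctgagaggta
The first Tlr6 entry held 2 overlapping matches to the ISRE core on the minus strand, at -116 and -110 from the start site, and the second held neither motif. Tlr13 held GAGGAAG at -83. The ISRE core was found in 3.443% and GAGGAAG in 13.63% of the 32851 promoters of this length. A match describes the letters and not a site in use.

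Tlr3, the endosomal receptor for double-stranded RNA, was read mostly in cDC1-like cells, the dendritic cells that take up dead cells and cross-present their antigens to CD8 T cells. It stood there at 48.4 CPM (131 UMIs) with anti-PD-1 and 37.4 CPM (69 UMIs) with isotype, and 77.1% and 65.7% of each library's Tlr3 UMIs came from these cells, which were 137 of 9714 and 96 of 9296 kept cells. The next type was macrophage-like cells, at 1.35 and 1.72 CPM, with 7.06% and 16.2% of those UMIs. Neutrophil-like cells had 0 Tlr3 UMIs in both libraries, with exact 95% intervals that reach 0.831 and 0.875 CPM. A Tlr3 UMI was found in 46.7% and 43.8% of cDC1-like cells, against 0 and 0.203% of T-like cells, at median depths of 19167 and 18546 UMIs for cDC1-like and 7936 and 6330 for T-like cells. Thinned to 1000 UMIs per cell, the cDC1-like shares were 3.65% and 3.16%. Against all other sums the log2 difference was 6.25 ± 0.69 (edgeR adjusted p = 3.20e-06). With a single library, where no test is possible, it was 6.47 with anti-PD-1 alone and 6.09 with isotype alone. Tlr3 met the filter on low counts only through cDC1-like cells, so its p-value is not a separate test of this peak. Tlr3 overlaps the antisense gene Gm45542, and since the sources used here do not state whether strand was used in counting, reads of the pair may not be told apart.

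Tlr11, a receptor for the profilin of the parasite Toxoplasma, had the same peak. It was at 24.0 CPM (65 UMIs) and 17.9 CPM (33 UMIs) in cDC1-like cells, and no other type exceeded 1.71 CPM in either library. A Tlr11 UMI was found in 29.2% and 26.0% of cDC1-like cells, and in 1 and 0 of the 590 and 492 T-like cells. These cells gave 72.2% and 57.9% of each library's Tlr11 UMIs. The log2 difference against all other sums was 5.62 ± 0.76 (edgeR adjusted p = 7.97e-05), with 5.58 for anti-PD-1 alone and 5.69 for isotype alone. Tlr11 too met the filter on low counts only through cDC1-like cells, so its p-value is not a separate test. Of the remaining receptors, Tlr2, Tlr4, Tlr6, Tlr7 and Tlr13 were all below the mean of the other types in cDC1-like cells. Their log2 differences ran from -1.01 ± 0.24 for Tlr13 to -4.21 ± 0.89 for Tlr7. Tlr9, not read in that comparison, was at 11.1 and 5.96 CPM there. By mean CPM this was rank 3 among the 13 types, overlapping the next type. With cells assigned by cluster in place of single-cell gates, Tlr2, Tlr4 and Tlr7 no longer passed in cDC1-like cells.

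The promoters of this pair, printed because these receptors peaked together in 1 type, lie at chr8:45410331-45410630 on the minus strand (Tlr3) and chr14:50357664-50357963 on the plus strand (Tlr11), in the same build and with the same capitals.
Tlr3: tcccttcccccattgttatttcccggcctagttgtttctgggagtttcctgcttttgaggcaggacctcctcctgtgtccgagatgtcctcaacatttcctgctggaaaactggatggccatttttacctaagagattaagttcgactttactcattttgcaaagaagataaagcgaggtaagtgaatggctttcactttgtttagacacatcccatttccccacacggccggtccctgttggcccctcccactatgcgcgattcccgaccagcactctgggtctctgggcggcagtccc
Tlr11: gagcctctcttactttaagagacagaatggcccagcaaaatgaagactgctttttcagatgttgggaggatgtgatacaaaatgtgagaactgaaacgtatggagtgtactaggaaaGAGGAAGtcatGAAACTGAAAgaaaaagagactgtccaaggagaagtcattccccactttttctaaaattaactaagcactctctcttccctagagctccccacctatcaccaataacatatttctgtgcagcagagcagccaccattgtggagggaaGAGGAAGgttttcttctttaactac
Tlr11 held the ISRE core at -122, just after the PU.1-type site at -133, and that site again at +26. The Tlr3 entry held neither motif, which says only that these letters are not in this window. Of the other members' entries, Tlr1 held the PU.1-type site at -23 and Tlr9 held it at -112 and, on the minus strand, at +12.

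The same 10 entries were searched for 12 further motifs on both strands, the longest of which are given by name. AGGAAG lies inside the PU.1-type site and was in 7 of the 10 entries (35.35% of all promoters). GGAAGT was in 6 (23.77%), and GGAAGTGA, which contains it, was in those of Tlr2 and Tlr9 (3.418%). A loose NF-κB pattern was in the entries of Tlr2, Tlr3 and 1 of Tlr6 (50.79%), and the AP-1 motif TGANTCA was in that of Tlr9 alone (7.808%). A stricter ISRE core, which overlaps the first, was in 1 Tlr6 entry (1.096%), and the reverse complement of the first core gives the matches already named. The ETS-IRF composite element (0.7306%) and TTGCGCAA (0.1826%) were in none. TTNNGNAA was in 7 entries (40.68%), the E-box CANNTG in 6 (72.31%) and TGTGGT in 1 (16.76%).

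Tlr7 and Tlr9, endosomal receptors for single-stranded RNA and for unmethylated CpG DNA, were both high in plasmacytoid dendritic-like cells, the main makers of type I interferon. Tlr7 was at 90.1 CPM (37 UMIs) and 124 CPM (59 UMIs) there. Non-classical monocyte-like cells followed with 34.6 and 28.9 CPM, apart from classical monocyte-like cells with 20.6 and 19.8 CPM. Arg1 Thbs1 Fn1 cells had 12.2 and 8.47 CPM and macrophage-like cells 10.2 and 10.0 CPM, while neutrophil-like cells had only 2.70 and 3.08 CPM. A Tlr7 UMI was found in 22 of 44 and 36 of 59 plasmacytoid dendritic-like cells, against 0.847% and 0.407% of T-like cells. The median depths of plasmacytoid dendritic-like cells were 8561 and 7764 UMIs. With the types of at least 30 cells, the log2 difference of plasmacytoid dendritic-like cells from the mean of the other 12 types was 4.51 ± 0.27 (edgeR adjusted p = 1.76e-13), in a comparison where 31.1% of all genes passed. Against all other sums it did not pass (3.24 ± 1.01, edgeR adjusted p = 0.103), so the call depends on the form of the comparison. In non-classical monocyte-like cells the log2 difference of Tlr7 was 3.65 ± 0.22 (edgeR adjusted p = 3.84e-13), and in classical monocyte-like cells 2.94 ± 0.17. Neutrophil-like cells had 12 and 13 Tlr7 UMIs in all. Their level stood 0.87 ± 0.39 above the mean of the other types on the log2 scale (edgeR adjusted p = 0.0478). That mean includes cDC1-like and migratory dendritic-like cells with 0 and 1 Tlr7 UMIs each. By mean CPM, which lacks the TMM scaling of the fit, neutrophil-like cells were rank 9 among the 13 types for Tlr7. The part of that scaling in the call was not tested. The Tlr7 call in neutrophil-like cells was lost with the stricter gate, with cells assigned by cluster, without doublet removal, without the filter on low counts and with the smaller types included.

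Tlr9 was at 34.1 CPM (14 UMIs) and 50.6 CPM (24 UMIs) in plasmacytoid dendritic-like cells, where 25.0% and 32.2% of cells had a UMI. B-like cells had 8 UMIs in the anti-PD-1 library (44.2 CPM, 95% interval 19.1 to 87.2) and 1 in the isotype library (3.60 CPM, 0.0910 to 20.03), so their level is set by few molecules. The cDC1-like level was 11.1 and 5.96 CPM. Classical monocyte-like (7.68 and 6.66 CPM), non-classical monocyte-like (6.91 and 7.53 CPM) and cDC2-like cells (7.09 and 5.23 CPM) overlapped each other. The log2 difference in plasmacytoid dendritic-like cells against all other sums was 2.94 ± 1.00 and did not pass (edgeR adjusted p = 0.140).

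Tlr8, a relative of Tlr7 and its neighbour on the X chromosome, was low throughout. Classical monocyte-like cells had the highest level, at 10.7 CPM in both libraries (139 and 114 UMIs). Non-classical monocyte-like cells gave 8.89 and 4.60 CPM, Arg1 Thbs1 Fn1 cells 5.41 and 4.71 CPM, and macrophage-like cells 4.04 and 6.17 CPM. Plasmacytoid dendritic-like cells, where Tlr7 peaked, had 0 Tlr8 UMIs in both libraries, with exact 95% intervals that reach 8.98 and 7.78 CPM.

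Positions follow the GENCODE annotation of build mm10. The neighbours Tlr1 (chr5:64924679-64933563) and Tlr6 (chr5:64952031-64960097), both on the minus strand, and Tlr2 (chr3:83836272-83841767, minus) each have their coding sequence in 1 exon. Tlr7 (chrX:167304929-167330558) and Tlr8 (chrX:167242696-167264329) lie side by side on the minus strand of X, with Tlr13 (chrX:106143204-106160493, plus) elsewhere on it. These 3, Tlr9 (chr9:106222598-106226883, plus) and Tlr11 (chr14:50357914-50363663, plus) have 2 coding exons each. Tlr4 (chr4:66827584-66930284, plus) has 3 and Tlr3 (chr8:45395665-45411080, minus) has 4. Counts are per gene, so they do not say which exon or untranslated region a read came from.

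Within types, levels also varied with subset genes that the gates did not separate. Neutrophil-like cells without a Retnlg UMI (661 and 701 cells), Retnlg being a secreted protein of mature blood neutrophils, had Tlr13 at 216 and 228 CPM, against 157 and 158 CPM in those with one (1334 and 1327 cells). Tlr6 went the same way, at 87.9 and 93.5 CPM without Retnlg against 67.6 and 60.1 CPM with it. Tlr2 went the other way, at 148 and 141 CPM without Retnlg against 193 and 185 CPM with it. For these 3 receptors the values of the subsets did not overlap between libraries, whereas for Tlr4 (227 and 181 against 195 and 174 CPM) they did. The same comparison was not made over all genes, so it has no background share beside it. With anti-PD-1 the counting intervals of Tlr6 overlapped, at 72.1 to 106 CPM without Retnlg and 58.9 to 77.2 CPM with it. Those of Tlr6 with isotype, and of Tlr2 and Tlr13 in each library, did not. Cells without Retnlg had medians of 1761 and 1676 UMIs against 2228 and 2079, and the part of depth, which also sets whether Retnlg is seen, was not tested.

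Among the monocyte-like, macrophage-like and Arg1 Thbs1 Fn1 cells together, those with UMIs of at least 2 of the interferon-induced genes Cxcl9, Gbp2 and Ly6a numbered 926 and 550, and the others 3115 and 3295. Tlr1 was higher in the former, at 15.01 and 10.23 CPM against 7.52 and 6.97 CPM, as was Tlr9, at 7.33 and 5.55 against 4.56 and 3.81 CPM. Tlr4 was lower in them, at 34.9 and 38.1 CPM against 62.1 and 55.5 CPM. Tlr7 was lower too, at 13.3 and 10.1 against 18.4 and 14.8 CPM. Tlr2 overlapped, at 160 and 135 against 189 and 158 CPM. The subsets mix the classes in different proportions, so these values describe the pool and not a change within 1 class.

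The genes most like each receptor were sought over the 22 sums of the 11 types with at least 50 cells per library. Pearson's r of log2(CPM + 1) was taken among 7108 genes, for the 6 members that reached 20 CPM in such a type in both libraries. Plasmacytoid dendritic-like cells, where Tlr7 peaked, are not among these types. Tlr9 reached 20 CPM in both libraries only there and was left out. Tlr2 was nearest to Emilin2 (r = 0.985), Cyp4f18 (0.977) and Lamp2 (0.976). Tlr4 was nearest to Gpat3 (0.978), Clec4e (0.966) and Atp6v1e1 (0.961), of which Clec4e encodes the pattern receptor Mincle. Tlr6 was nearest to Sde2 (0.953), Ets2 (0.947) and Mir22hg (0.931), and Tlr13 to Gabarap (0.969), Mcl1 (0.949), a survival factor of neutrophils, and Neat1 (0.946). Tlr7 had looser companions in Naip2 (0.884), Pla2g15 (0.879) and Slc16a10 (0.879). Tlr3 was nearest to Fam149a (0.977), Pianp (0.927) and E330020D12Rik (0.918). Fam149a (chr8:45336717-45382291, minus strand) is also its neighbour in the genome, on the same strand with 13373 bases between them and 0 genes lying wholly in that gap. Between members, r was highest for Tlr2 with Tlr13 (0.871) and with Tlr4 (0.863), and lowest for Tlr3 with Tlr4 (-0.371). All sums of 1 library share its depth and preparation, and sums of 1 type share their gate.

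The partners of the receptors did not all follow them. Cd14, the co-receptor that hands lipopolysaccharide to Tlr4, was at 5612 and 5466 CPM in neutrophil-like cells, a log2 difference of 4.19 ± 0.08 from the mean of the other types (edgeR adjusted p = 9.22e-25), and at 3138 and 2823 CPM in Arg1 Thbs1 Fn1 cells. Ly96, which encodes MD-2, the subunit that holds lipopolysaccharide on Tlr4, was highest in classical monocyte-like cells at 24.4 and 22.3 CPM, and at 16.9 and 14.0 CPM in neutrophil-like cells. Cd36, a scavenger receptor that serves Tlr2 with Tlr6, was at 56.9 and 61.8 CPM in cDC1-like and 43.4 and 62.8 CPM in non-classical monocyte-like cells, but at 0 and 1.66 CPM in neutrophil-like cells, where Tlr6 peaked. The log2 difference of Cd36 was 3.67 ± 0.23 in cDC1-like cells (edgeR adjusted p = 9.17e-13).

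Unc93b1, the chaperone that carries the endosomal receptors out of the endoplasmic reticulum, was highest in plasmacytoid dendritic-like cells at 835 and 807 CPM. It stood at 497 and 395 CPM in cDC1-like cells and at 498 and 331 CPM in B-like cells. Neutrophil-like cells, with the highest Tlr13 share, had 122 and 97.4 CPM. Cd180, a Toll-like receptor homologue of B cells, and its partner Ly86 (MD-1) were also highest in plasmacytoid dendritic-like cells, at 80.3 and 110 CPM and at 713 and 662 CPM. Ly86 was at 7.66 and 5.22 CPM in neutrophil-like cells.

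The adaptors split between neutrophil-like and monocyte-like cells. Tirap, the bridging adaptor of Tlr2 and Tlr4, was at 23.9 and 22.0 CPM in neutrophil-like cells and 25.9 and 25.0 CPM in immature ones, against at most 10.0 CPM in any other type in either library. Ticam1, the only adaptor of Tlr3, was at 1.35 and 1.90 CPM in neutrophil-like cells, which had no Tlr3 UMI, and at 15.1 and 16.3 CPM in cDC1-like cells. Its log2 difference was -1.80 ± 0.35 in neutrophil-like cells (edgeR adjusted p = 5.28e-05) and 0.62 ± 0.22 in cDC1-like cells (adjusted p = 0.0224). Myd88 was broad, with 155 and 135 CPM in classical monocyte-like cells and 37.6 and 28.4 CPM in migratory dendritic-like cells, its highest and lowest mean levels.

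**Figure D3:**
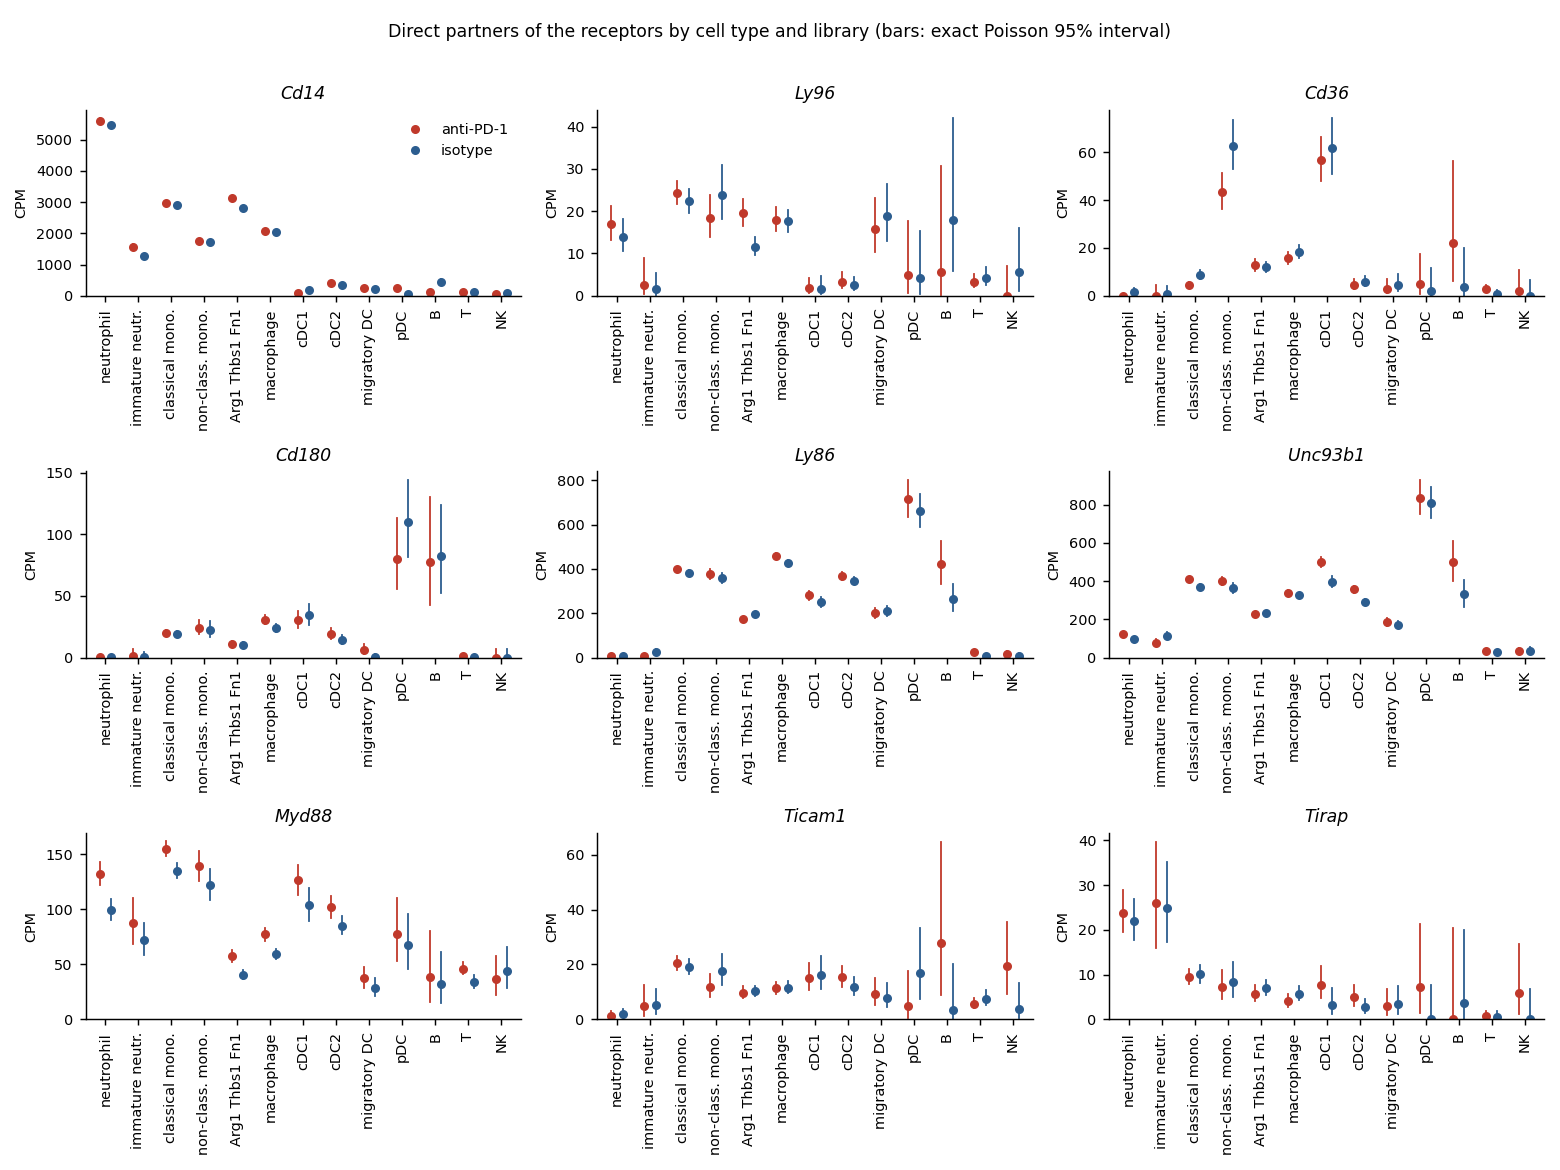
CPM (linear from 0, scale differs by panel) of 9 direct partners of the receptors in 13 gated cell types, 1 point per library (red anti-PD-1, blue isotype), with bars for the exact Poisson 95% interval. Cd14 is highest in neutrophil-like cells, Cd36 in cDC1-like and non-classical monocyte-like cells, Unc93b1 and Ly86 in plasmacytoid dendritic-like cells, and Tirap in both neutrophil-like types.

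Of the genes downstream, counted among those with UMIs in every type, all 10 tested targets of the pathway and all 9 tested inhibitors were higher in neutrophil-like cells than the mean of the other types, with median log2 differences of 4.14 and 1.95. Among them were Acod1 (3444 and 3188 CPM), the enzyme that makes itaconate, and the neutrophil-attracting chemokines Cxcl3 (4964 and 5057 CPM) and Cxcl2 (32405 and 36013 CPM). The inhibitors with the largest differences were Cd300a, Zc3h12a and Nfkbia, at 233 and 201, 362 and 322, and 6220 and 5854 CPM. Of 15 kinases and ubiquitin ligases, 11 were higher and 2 lower there, led by Pik3ap1 (599 and 558 CPM). Of 9 enzymes that cleave the receptors or digest their ligands, 2 were higher and 6 lower. The list of targets was chosen for Toll-like receptor signalling, but other receptors drive the same genes, and 78.3% of all genes passed in this comparison.

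The cDC1-like cells, in which 52.2% of all genes passed, showed another set. Irf8, the lineage factor of these cells, was at 1277 and 1137 CPM against 4.96 and 1.90 CPM in neutrophil-like cells. Of 6 tested folding and transport genes, 4 were higher and none lower, with log2 differences of 1.30 ± 0.08 for Unc93b1, 0.92 for Cnpy3 and 0.89 for Hsp90b1. This was not particular to cDC1-like cells. In cDC2-like cells (44.2% of all genes passed) and classical monocyte-like cells (51%), 5 of the 6 were higher and none lower. Of 10 tested targets, 9 were lower and none higher in cDC1-like cells. In both Arg1 Thbs1 Fn1 and macrophage-like cells, 9 of 10 tested targets were higher (51.3% and 55% of all genes passed there), led by Il1a, with log2 differences of 3.79 and 2.48. Classical monocyte-like cells, with 51% of all genes passing, had 5 targets higher and 2 lower, and were the only type with all 4 tested adaptors higher.

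Between the libraries, most receptor levels lay within 1.5-fold and leaned towards anti-PD-1. Of 47 values of a member in a type that had at least 50 UMIs over both libraries, 41 were higher with anti-PD-1 and 6 lower, or 87.2% higher, with a median log2 ratio of 0.21. Over all genes measured in the same way in the 10 types with a measured member, 55.4% to 66.4% were higher by type, with medians of 0.034 to 0.106. The exact 95% interval of the ratio, which covers counting error only, lay above 0 for 9 of the 47 and below 0 for 0. Intervals were not computed over all genes, so this count has no background share beside it. The counts are without scaling by edgeR's TMM factors, which is treated below. No replicate tells what 2 libraries of 1 antibody would differ by.

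**Figure D4:**
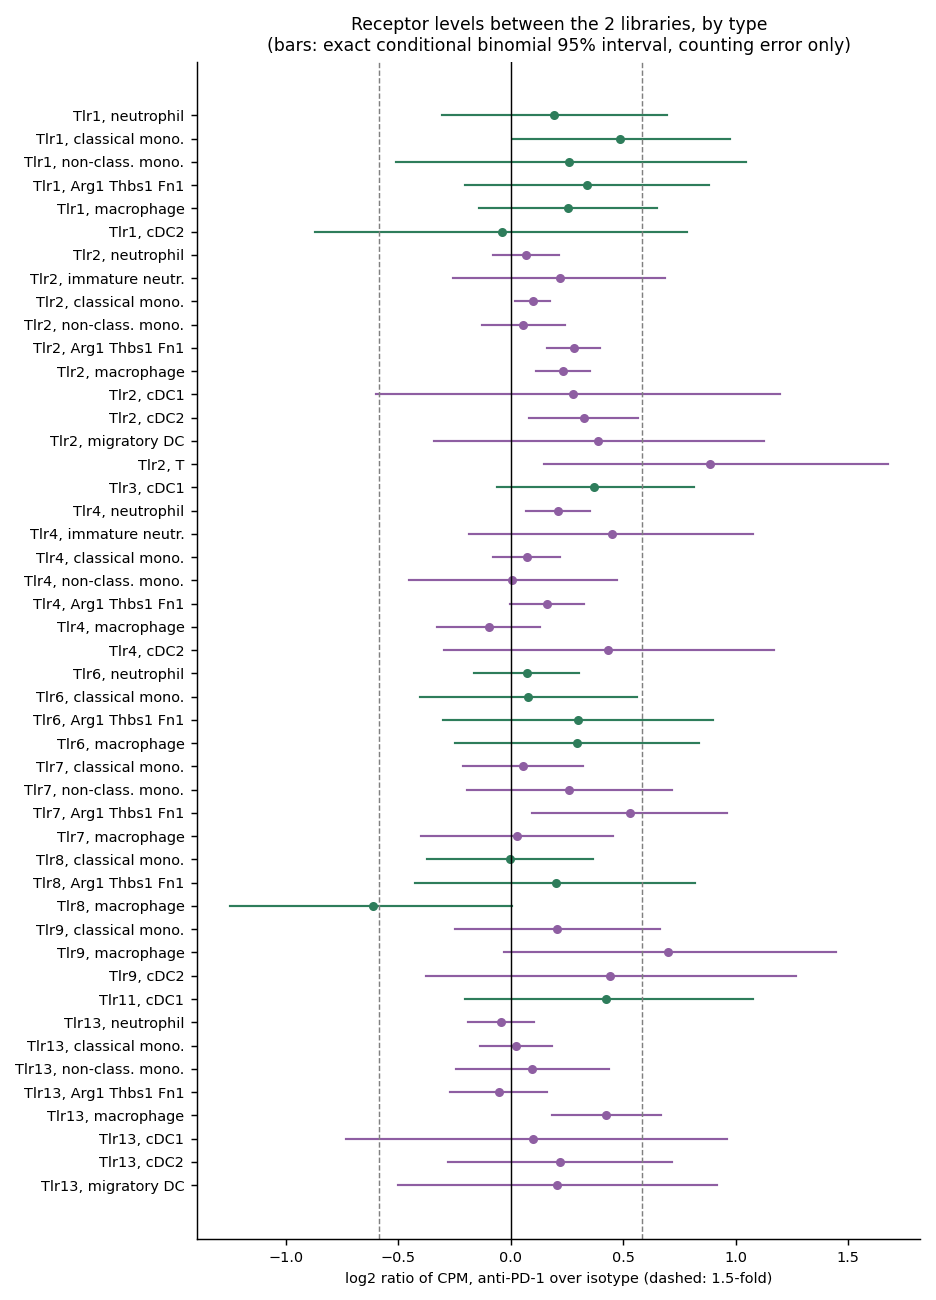
The log2 ratio of CPM, anti-PD-1 over isotype (horizontal axis), for each of the 47 values of a receptor in a cell type with at least 50 UMIs over both libraries, grouped by receptor. Points are the ratio and bars the exact conditional binomial 95% interval, solid line 0 and dashed lines 1.5-fold; 41 points lie right of 0 and 3 lie past a dashed line.

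Tlr2 was higher with anti-PD-1 in 10 of the 10 types where it was measured, with 5 intervals above 0. The log2 ratio was 0.28 (95% interval 0.16 to 0.40) in Arg1 Thbs1 Fn1 cells, 0.23 (0.11 to 0.35) in macrophage-like cells, 0.32 (0.08 to 0.57) in cDC2-like cells and 0.10 (0.02 to 0.18) in classical monocyte-like cells. Summed classical monocyte markers were also higher with anti-PD-1 in Arg1 Thbs1 Fn1 cells (2163 and 1732 CPM, 6 of 8 markers), in macrophage-like cells (1996 and 1376 CPM, 5 of 8 markers) and in cDC2-like cells (1283 and 999.9 CPM, 8 of 8 markers), and their part in these ratios was not tested. Tlr4 was higher in 6 of 7 types, with an interval above 0 in neutrophil-like cells alone (0.21, 0.07 to 0.35). Tlr13 was higher in 6 of 8 types, Tlr1 in 5 of 6, and Tlr6 and Tlr7 in 4 of 4 each. Their intervals above 0 were those of Tlr13 in macrophage-like cells (0.42, 0.18 to 0.67), Tlr1 in classical monocyte-like cells (0.49, 0.01 to 0.97) and Tlr7 in Arg1 Thbs1 Fn1 cells (0.53, 0.10 to 0.96). In cDC1-like cells Tlr3 (0.37, -0.06 to 0.81) and Tlr11 (0.42, -0.20 to 1.08) were each higher by an interval that includes 0. In those cells the summed neutrophil markers were 333.5 and 670 CPM. Scaling by edgeR's TMM factors lowers the ratios in each of the 11 types, by 0.101 in cDC1-like cells. In cDC2-like cells it lowers them by 0.0925, more than the lower bound of Tlr2 (0.0816). In classical monocyte-like cells it lowers them by 0.0379, more than the lower bounds of Tlr2 (0.0199) and Tlr1 (0.00884). The intervals of Tlr2 and Tlr1 in these types then include 0. The scaling also takes below 0 Tlr7 in macrophage-like (0.028), Tlr13 in classical monocyte-like (0.024) and Tlr4 in non-classical monocyte-like cells (0.0066). The counts of types given above for these receptors are without the scaling.

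Past 1.5-fold were 3 of the 47 values, a count that was 10 of 42 with cells assigned by cluster and 6 of 47 with the mean of each cell's CPM. In T-like cells, where 9.59% of all genes were past that fold, Tlr2 gave 61 and 21 UMIs (9.71 and 5.26 CPM, log2 ratio 0.88, 0.15 to 1.67), from 31 and 12 cells. The summed macrophage markers in the same cells were 213 and 52.3 CPM, with 9 of 9 higher with anti-PD-1, Ly86 was at 25.8 and 7.76 CPM, and the summed classical monocyte markers were 1002 and 761 CPM. The part of this myeloid RNA in the Tlr2 value was not tested. In macrophage-like cells (4.93% of all genes past the fold), Tlr9 was higher with anti-PD-1 on 41 and 28 UMIs (0.70, -0.03 to 1.45) and Tlr8 lower on 36 and 61 UMIs (-0.61, -1.25 to 0.006), and both intervals include 0. The Tlr9 value changed sign with cells assigned by cluster. No member passed the fold in Arg1 Thbs1 Fn1 cells (3.79% of all genes), classical (3.78%) or non-classical monocyte-like cells (6.24%), neutrophil-like (6.02%) or immature neutrophil-like cells (13.5%), or in cDC1-like (9.8%), cDC2-like (6.6%) or migratory dendritic-like cells (7.2%).

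The rest of the pathway gave 709 values, 475 of them higher with anti-PD-1, with 254 intervals above 0 and 81 below, and 99 past 1.5-fold. Over all genes in the 11 types together, 60.8% were higher and 6.87% past 1.5-fold. Intervals over all genes were not computed, so the counts of intervals in this paragraph have no background share. Myd88 was higher with anti-PD-1 in all 10 types where it was measured, with intervals above 0 in 7 of them. The Myd88 levels were 132 and 99.6 CPM in neutrophil-like cells (log2 ratio 0.41, 0.22 to 0.59), 77.1 and 59.1 CPM in macrophage-like cells (0.38, 0.22 to 0.55) and 57.1 and 40.4 CPM in Arg1 Thbs1 Fn1 cells (0.50, 0.31 to 0.69). Ticam1 showed no such lean, with log2 ratios of -0.03 (-0.43 to 0.37) in macrophage-like and 0.09 (-0.18 to 0.36) in classical monocyte-like cells. Ly96 was past the fold in Arg1 Thbs1 Fn1 cells alone, at 19.5 and 11.5 CPM (0.76, 0.40 to 1.11). Irf7, the interferon regulatory factor that acts below Tlr7 and Tlr9 and is itself induced by interferon, was at 138 and 87.0 CPM in neutrophil-like cells (0.67, 0.48 to 0.86) and 169 and 111 CPM in non-classical monocyte-like cells (0.61, 0.39 to 0.83), and at 70.2 and 70.6 CPM in T-like cells (-0.01, -0.23 to 0.21).

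Among the targets, 14 of the 15 measured were higher with anti-PD-1 in macrophage-like cells and 14 of 15 in Arg1 Thbs1 Fn1 cells, 5 past the fold in each, and 12 of 14 in classical monocyte-like cells, 3 past it. Of all genes, 60.7%, 57.5% and 61.7% were higher in these types, and 4.93%, 3.79% and 3.78% past the fold. Tnf was at 213 and 112 CPM in macrophage-like cells (0.93, 0.82 to 1.04), and Acod1 at 120 and 64.1 CPM there and 75.4 and 38.4 CPM in classical monocyte-like cells. In immature neutrophil-like cells 8 of 9 were lower, 5 past the fold, where 61.0% of all genes were higher and 13.5% past the fold. In cDC1-like cells 6 of 10 were lower, 5 past the fold, where 65.9% of all genes were higher and 9.8% past it. The largest of the cDC1-like differences was Cxcl3, at 3.69 and 146 CPM, beside S100a8 at 9.23 and 140 CPM and S100a9 at 10.3 and 217 CPM, which are neutrophil genes. Classical monocyte-like cells also held less S100a8 with anti-PD-1 (421 and 1313 CPM), and their summed neutrophil markers were 1122 and 2791 CPM. The part of neutrophil RNA in these values was not tested, and among the receptors Tlr4, Tlr6 and Tlr13, which are high in neutrophil-like cells, classical monocyte-like levels differed by log2 ratios of 0.07, 0.08 and 0.02.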

How the data were processed

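Immune cells of 1 anti-PD-1 and 1 isotype library were analysed from the deposited count matrices, which hold UMI counts per gene and cell barcode, not normalized. Per the submitters' processing notes the authors used Cell Ranger 2.1.1 and build mm10, while the file headers name Cell Ranger 5.0.1. Barcodes had to reach 500 UMIs and 200 genes with no more than 10% of UMIs mitochondrial, and 300 and 270 barcodes with a doublet score above 0.25 were removed (scanpy 1.11.5). A cell got the type of its best marker list where the score reached 0.5, led by 0.2 and rested on 3 markers, and 1809 cells lay near that score. UMIs were summed per type and library and tested with edgeR 4.0.16 (DESeq2 1.42.0 as an alternative) over 11872 genes in 22 sums with the library as a term. The test was run on simulated data first. Between antibodies, ratios of CPM carry exact conditional binomial 95% intervals, which cover counting error only, and were counted as past the fold beyond 1.5-fold with at least 50 UMIs over both libraries.

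Named are all 10 receptors, the direct partners, at most 3 genes per pathway list and type by size of difference, and the 3 genes of most like pattern. A few further genes (Irf7, Tnf, Irf8, Cnpy3, S100a8, S100a9, Cxcl3 and Acod1 between libraries) and the subsets by Retnlg and by Cxcl9, Gbp2 and Ly6a were picked after their values were seen. The members and lists were chosen with earlier results of these data known. So were the doublet score and, with receptor levels visible, the gate's thresholds and the class of Arg1 Thbs1 Fn1 cells. The contrast against the mean of the other types has no finite value where a type has 0 UMIs. Its reading for 5 members, the comparisons against all other sums or with types of at least 30 cells, and the capitals in the promoters were also chosen after seeing the data.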

Additional observations from a re-analysis of the deposited data

Results flagged for a closer look

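A pair of Toll-like receptor genes outside the 10 members gave UMIs that the comparisons above do not use. Tlr12, which pairs with Tlr11, was at 32.13 CPM with anti-PD-1 and 26.56 CPM with isotype in cDC1-like cells. Plasmacytoid dendritic-like cells had a like level, at 21.9 and 35.8 CPM (9 and 17 UMIs). In macrophage-like cells Tlr12 was at 6.728 CPM (60 UMIs) and 2.628 CPM (26 UMIs), a log2 ratio of 1.36 with an exact 95% interval of 0.67 to 2.08. Among cDC1-like cells, Tlr11 was found in 34.7% of those with a Tlr12 UMI and 26.1% of those without (anti-PD-1), and in 46.4% and 17.6% (isotype). The cells with a Tlr12 UMI were also deeper, with median UMIs of 22819 against 16619 and 20772 against 18100. The part of depth in that gap was not tested. Tlr5, the flagellin receptor, was at 7.755 and 7.506 CPM in classical monocyte-like cells, 5.916 and 4.907 CPM in Arg1 Thbs1 Fn1 cells and 3.812 and 3.639 CPM in macrophage-like cells. In T-like cells Tlr12 was at 0.955 and 0.751 CPM and Tlr5 at 0.159 and 0 CPM, and the part of free RNA in the low values was not tested.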

How the results depend on the processing

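Across types, 47 of 55 pairs of member and type passed, and 40 of 50 with cells assigned by Leiden cluster, which gave no non-classical monocyte-like type. The other alternatives over the same 55 pairs gave 46 to 48, with 47 in DESeq2, and the stricter gate 44 of 50. With types of at least 30 cells 30 of 33 passed, since Tlr6 and Tlr13, at 0 UMIs in B-like cells, then have no finite value. The pathway genes gave 520 of 759 and, under the alternatives, between 459 and 537. Of the single results across types, 541 values under the alternatives were unchanged, 28 moved, 10 turned in sign, 6 came to pass and 10 no longer passed. Unchanged values kept their direction and side of the threshold. With 1 library left out there is no test, and unchanged means within 1 SE of the main value and moved means beyond it. Between antibodies 391 held, 17 moved and 2 turned, each of the latter for Tlr9 in macrophage-like cells. These labels do not count every change of sign near 0. TMM scaling takes Tlr7 in macrophage-like cells (0.028), Tlr13 in classical monocyte-like (0.024) and Tlr4 in non-classical monocyte-like cells (0.0066) below 0. None of these is among the values counted as turned. The count of members past 1.5-fold, 3 of 47, was 10 of 42 by Leiden cluster, 6 of 47 with the mean of each cell's CPM, 0 of 15 with cells thinned to 1000 UMIs, 7 of 59 with at least 20 UMIs and 39 of 101 with at least 1. For pathway genes it was 99 of 709, against 42 of 400 thinned and 198 of 877 with at least 1 UMI. Clustering, thinning and the UMI minimum change how many values are tested, and the causes were otherwise not tested. Tlr9 in macrophage-like cells (0.70 between antibodies) became -0.98 by Leiden cluster and -0.094 thinned.

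These log2 differences from the mean of the other types turned in sign. By Leiden cluster, Tlr13 became 0.035 in cDC2-like and 1.49 in immature neutrophil-like cells (edgeR adjusted p = 7.61e-05), and Tlr7 -0.11 in the latter. Without doublet removal, Tlr2 in cDC2-like cells became -0.024 and Tlr13 in migratory dendritic-like cells -0.044. With the stricter gate the latter became -0.15. Tlr7 in NK-like cells (-0.01) became 0.091 with the stricter gate, 0.078 in DESeq2 and 0.030 with only genes present in every type. Without isotype, which leaves no test, Tlr6 in immature neutrophil-like cells became -0.52. With 1 library left out, Tlr7 (without isotype) and Tlr6 and Tlr13 (without anti-PD-1) have 0 UMIs in a type and no finite value.

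The 6 calls against all other sums kept their direction with either library alone. No paired analysis was possible because the groups share only 1 replicate number. Depth limits Tlr1, Tlr8 and Tlr9, and every member in B-like, NK-like and plasmacytoid dendritic-like cells.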
